A study of Mus musculus with 2 samples.

Results

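The 8 genes described here encode the enzymes and mitochondrial carriers of the urea cycle: Cps1, Otc, Ass1, Asl, Arg1, Nags, Slc25a15 and Slc25a13. They were chosen by symbol as members of the pathway, by a rule that used no measured value, though with earlier results of these libraries known. All 8 were found among the 43280 gene symbols counted. Poly(A) RNA was sequenced from 1 library of mature hepatocytes (MHs) and 1 library of small hepatocytes (SHs). Both came from the livers of the same C57BL6 mice, which the sample labels give as 20 weeks old, whereas the study's methods give a younger age for its mice. MHs were the heavy cells of a collagenase digest after dead cells had been removed on Percoll, and they were not sorted. SHs were the light cells of that digest, purified by FACS for ICAM-1 and against CD31, CD45 and EpCAM. Neither group had received a treatment. The question was where SHs, which the labels call hepatocyte progenitors, differ from MHs.

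The urea cycle turns ammonia, which is toxic, into urea for excretion, and the liver is the main organ in which the whole cycle runs. It begins in the mitochondrial matrix, where carbamoyl phosphate is made and joined to ornithine, and ends in the cytosol, where arginine is split into urea and ornithine. In the liver lobule it is known to be strongest in hepatocytes near the portal vein, while the hepatocytes next to the central vein bind the remaining ammonia as glutamine.

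There was no replicate of either library. All comparisons are therefore between these libraries, without a test, and each interval is a 95% interval of counting error alone. The reads carried no molecular identifiers, so duplicates of the same molecule were counted as separate reads, and the intervals may be too narrow. Counted reads numbered 16979136 for MHs and 42356444 for SHs. Levels are given in reads per 1000000 counted reads of the same library (RPM), and differences as the log2 ratio of SHs over MHs. The 3 reads taken as the limit of detection were 0.177 RPM in MHs and 0.0708 RPM in SHs, far under the lowest level of the 8 genes. In bulk RNA, fewer cells of a type and less RNA per cell cannot be told apart.

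All 8 genes had a higher RPM in SHs than in MHs, by small amounts that differed between genes. However, scaling to 6 hepatocyte marker genes instead of all reads put only 6 of the 8 above 0, with Cps1 at -0.073 and Slc25a13 at -0.014. Alb held most reads of these markers. Scaled to all reads, the log2 ratios of the markers ran from -0.19 for Apoa1 to 0.27 for Tat, with a median of 0.01. With that scaling, the intervals of Otc (-0.04 to 0.04), Nags (-0.05 to 0.13) and Slc25a13 (-0.08 to 0.05) included 0. Together the 8 genes made up 1.13% of reads in MHs (95% Clopper-Pearson interval 1.12% to 1.13%) and 1.28% in SHs (1.28% to 1.29%). Their median log2 ratio was 0.20, against 0.03 over the 9608 genes with at least 200 reads in both libraries together. A ratio above 0 was found for 8 of 8 urea cycle genes and for 55.8% of those 9608 genes. At least 25% higher in SHs were 2 of the 8, Ass1 and Slc25a15, beside 8.89% of the 9608 genes. With the libraries scaled to the 6 hepatocyte markers, only Ass1 passed that limit, and the median of the 8 was 0.10. At least 20% lower, which is the same ratio turned around, were 0 of the 8, beside 8% of the 9608. Since every urea cycle gene had over 5000 reads, the same shares were taken over the 1299 genes with at least 5000 reads, and were 6.08% higher and 8.24% lower.

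**Figure D1:**
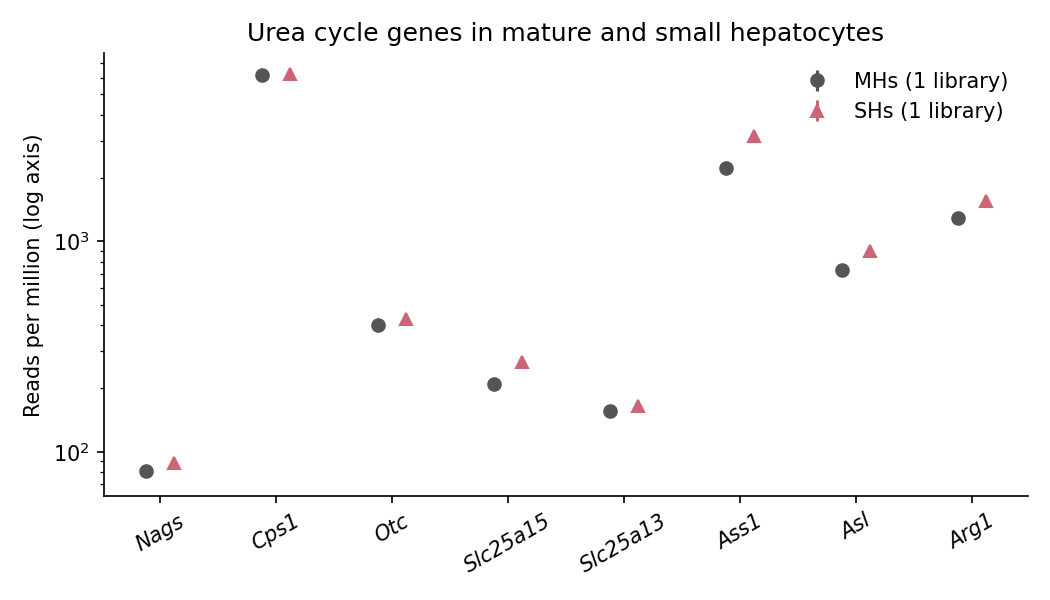
Reads per 1000000 counted reads (RPM, log axis) of each urea cycle gene in the library of MHs (circles) and that of SHs (triangles), with 95% counting intervals that are smaller than most symbols. Cps1 stood highest in both libraries, at 6182 RPM in MHs, and Ass1 showed the widest gap, from 2242 RPM in MHs to 3181.5 in SHs.

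Among the enzymes, those of the mitochondrial matrix differed less than those of the cytosol. Cps1 (ENSMUSG00000025991, chromosome 1, 67123026 to 67231259 of mm10) encodes carbamoyl phosphate synthetase, which joins ammonia and bicarbonate in the step that commits nitrogen to the cycle. It had 104963 reads in MHs against 265556 in SHs, and it was the gene with rank 15 by reads in both libraries. Its level was 6182 RPM in MHs against 6269.6 in SHs, for a log2 ratio of 0.02 (0.01 to 0.03). The sign of that ratio depended on the scaling, and 47.6% of the 9608 genes had a lower ratio. Cps1 was thus nearly level between these libraries. The study's own quantitative PCR, normalized to the reference gene Gapdh or Hprt1, found Cps1 significantly higher in SHs. It used paired sets of SHs and MHs from the same mouse, whereas the ratio here is scaled to all reads.

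Nags (chromosome 11, 102145513 to 102149477) encodes N-acetylglutamate synthase, whose product Cps1 needs in order to be active. It was the least abundant of the 8, with 1371 reads in MHs against 3754 in SHs. These were 80.7 against 88.6 RPM, with a log2 ratio of 0.13 (0.04 to 0.22). An antisense gene, Gm11586, overlaps Nags over 698 bases, but only 12 reads in MHs against 32 in SHs were counted on it. Otc (chromosome X, 10252305 to 10321024) encodes ornithine transcarbamylase, which makes citrulline from carbamoyl phosphate and ornithine. It had 6808 reads in MHs against 18151 in SHs, or 401 against 429 RPM, with a log2 ratio of 0.10 (0.06 to 0.14). Summed, the reads of Nags, Cps1 and Otc were 0.666% of all reads in MHs and 0.679% in SHs.

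The carriers of the inner mitochondrial membrane differed from each other. Slc25a15 (chromosome 8, 22375551 to 22398597) encodes the carrier that brings ornithine into the matrix and citrulline out of it. It had 3574 reads in MHs against 11267 in SHs, or 210.5 against 266 RPM, with a log2 ratio of 0.34 (0.28 to 0.39) that exceeded the ratio of 91.9% of the 9608 genes. Slc25a13 (chromosome 6, 6041218 to 6217173) encodes citrin, which exports the aspartate that argininosuccinate synthetase uses. It had 2647 reads in MHs against 6980 in SHs, or 156 against 165 RPM, with a log2 ratio of 0.08 (0.02 to 0.15). The log2 ratio of Slc25a15 was higher than that of Slc25a13 by 0.26 (0.17 to 0.34), a value that no scaling of the libraries can alter.

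The enzymes of the cytosol had higher ratios than those of the matrix, and the carrier Slc25a15 lay between Ass1 and Asl. Ass1 (ENSMUSG00000076441, chromosome 2, 31470207 to 31520672) encodes argininosuccinate synthetase, which joins citrulline and aspartate. It had 38070 reads in MHs against 134757 in SHs. Its level was 2242 RPM in MHs against 3181.5 in SHs, for a log2 ratio of 0.50 (0.49 to 0.52), higher than that of 97.2% of the 9608 genes. By reads it stood at rank 66 in MHs and at rank 38 in SHs. Asl (chromosome 5, 130011258 to 130029247) encodes argininosuccinate lyase, which releases arginine and fumarate. It had 12350 reads in MHs against 38013 in SHs, or 727 against 897 RPM, with a log2 ratio of 0.30 (0.27 to 0.33). Arg1 (chromosome 10, 24915221 to 24927484) encodes the liver arginase, which frees urea. It had 21974 reads in MHs against 65679 in SHs, or 1294 against 1551 RPM, with a log2 ratio of 0.26 (0.24 to 0.28). For Asl and Slc25a15 the interval included the limit of 25% higher, with a log2 ratio of 0.32, so that counting error alone did not settle on which side of it they lay. Summed, the reads of Ass1, Asl and Arg1 were 0.426% of all reads in MHs and 0.563% in SHs, 1.32-fold higher, beside 1.02-fold for Nags, Cps1 and Otc. The grouping by compartment was made with the values known.

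**Figure D2:**
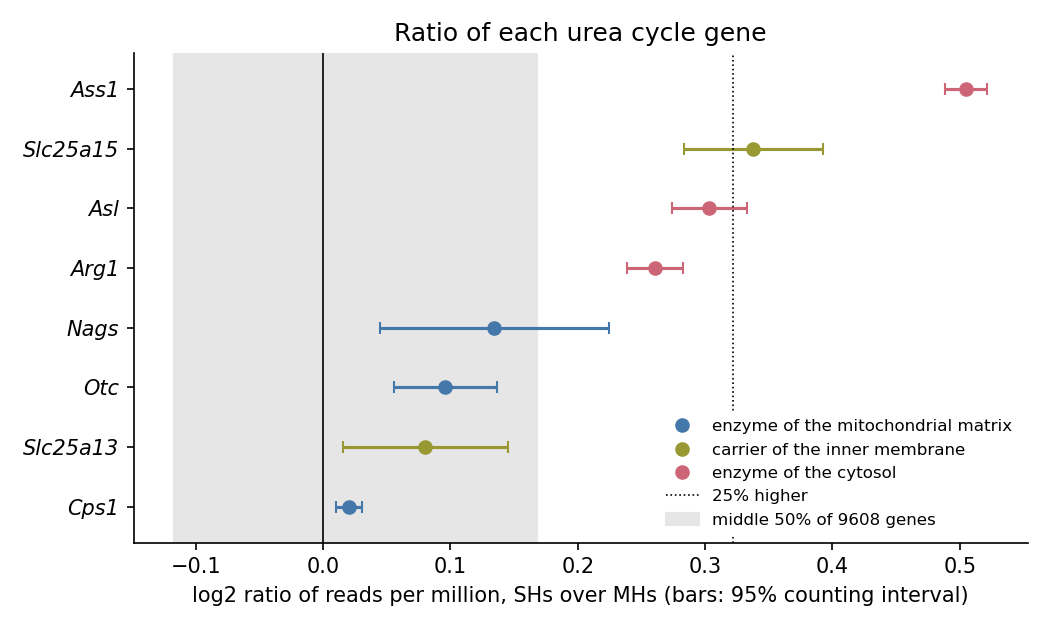
The log2 ratio of RPM in SHs over MHs for each urea cycle gene, with its 95% counting interval, coloured by the place of the protein in the cell. The grey band holds the middle 50% of the 9608 genes with at least 200 reads, and the dotted line marks 25% higher. The enzymes of the cytosol lay between 0.26 and 0.50 and those of the matrix between 0.02 and 0.13, with Cps1 and Slc25a13 under 0 when scaled to 6 hepatocyte marker genes.

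The count for Ass1 is uncertain because the genome carries a near-identical copy of it. Gm5424 (chromosome 10, 62071123 to 62072362 of mm10) is annotated as a processed pseudogene of 1 exon, whereas the coding transcript of Ass1 has 16. Over the 1240 bases of the copy, which begin at the start codon of Ass1, the sequences differed at 6 bases (99.5% identical), and the longest stretch without a difference was 398 bases. The substitutions from Ass1 to Gm5424, counted from 1 at the first base of the start codon, were T399C, T429C, A520T, G656C, T1011C and C1143T. The stretch from coding base 369 to 429 is shown because it holds 2 of the 6 differences, which are in capitals, and so shows how little separates the copies. For Gm5424 it is chr10:62071491-62071551 of mm10, plus strand.
Ass1: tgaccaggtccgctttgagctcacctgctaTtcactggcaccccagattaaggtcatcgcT
Gm5424: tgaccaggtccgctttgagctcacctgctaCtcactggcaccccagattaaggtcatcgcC
The files listed 10453 reads for Gm5424 in MHs against 34300 in SHs, or 616 against 809.8 RPM, with a log2 ratio of 0.40 (0.36 to 0.43). Of the reads of Ass1 and Gm5424 together, Gm5424 held 21.5% in MHs (21.2% to 21.9%) and 20.3% in SHs (20.1% to 20.5%). How reads that match both were counted is not given in the sources used here. With the reads of Gm5424 added to Ass1, the log2 ratio was 0.48 (0.47 to 0.50), so Ass1 still had the highest ratio of the 8. For the other 7 genes, the only annotated transcript at least 90% identical to theirs was Gm11586, which overlaps Nags.

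Ratios of reads within a library do not depend on how the libraries are scaled. For every 100 reads of Cps1, there were 36.3 reads of Ass1 in MHs (35.8 to 36.7) and 50.7 in SHs (50.4 to 51.1). For Asl there were 11.8 in MHs against 14.3 in SHs, and for Arg1 20.9 in MHs against 24.7 in SHs. The intervals of these ratios did not overlap between the libraries. For Otc there were 6.49 (6.33 to 6.65) in MHs and 6.84 (6.73 to 6.94) in SHs. For Slc25a13 there were 2.52 (2.43 to 2.62) in MHs and 2.63 (2.57 to 2.69) in SHs, intervals that overlapped. Of the 28 pairs of urea cycle genes, the difference in log2 ratio had a counting interval that left out 0 in 23. The 5 pairs whose interval included 0 were Slc25a15 with Asl, Nags with Otc, Nags with Slc25a13, Otc with Slc25a13, and Slc25a13 with Cps1. The widest difference, between Ass1 and Cps1, was 0.48 (0.47 to 0.50).

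**Figure D3:**
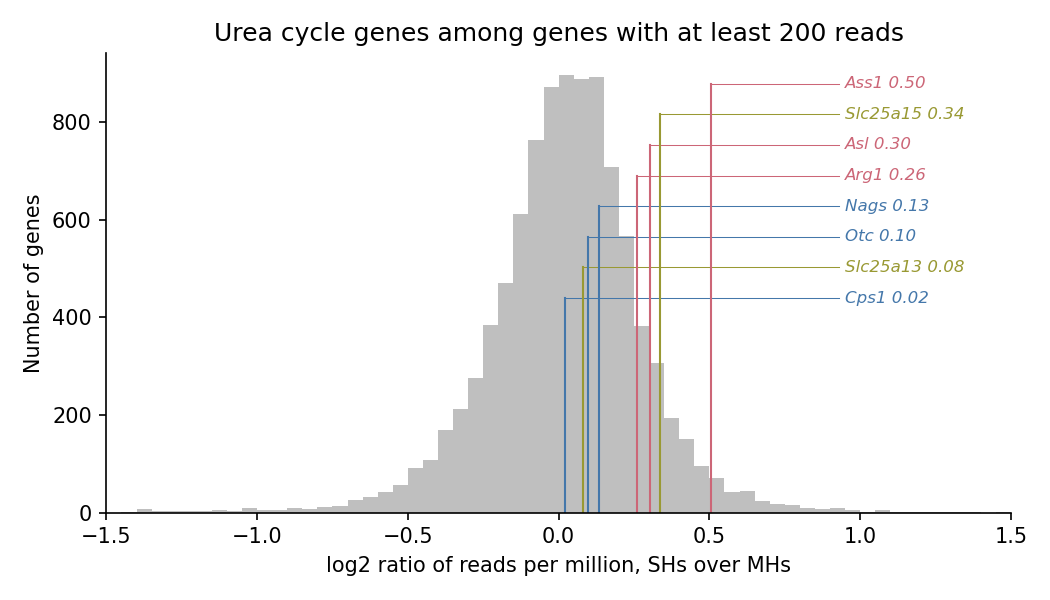
Number of genes by log2 ratio of RPM in SHs over MHs (bins of 0.05) for the 9608 genes with at least 200 reads, of which 55 lie outside the axis. Vertical lines mark the 8 urea cycle genes: Cps1 lay near the middle of the distribution, at 0.02, and Ass1 in its upper tail, at 0.50.

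Levels of different genes were compared per kilobase of annotated exon (RPKM). In MHs, the order was Cps1 (1113 RPKM), Ass1 (929), Arg1 (581), Asl (151), Otc (94.5), Slc25a13 (41.0), Slc25a15 (37.4) and Nags (28.5). In SHs, Ass1 (1318 RPKM) stood above Cps1 (1129), followed by Arg1 (696), Asl (186), Otc (101), Slc25a15 (47.3), Slc25a13 (43.4) and Nags (31.2). The counting intervals of neighbours in this order did not overlap in either library, for 7 pairs each. The order of Ass1 and Cps1 in MHs depended on whether reads of the copy Gm5424, left out here, belong to Ass1. It also depended on the length used. With the longest annotated transcript in place of all exons, Ass1 stood above Cps1 in MHs too. The enzymes thus spanned a wide range, with Cps1 39.1-fold above Nags in MHs and 36.1-fold in SHs per kilobase.

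The paralogs of Arg1, Slc25a15, Slc25a13 and Cps1 all had fewer reads than these in both libraries. Arg2, the mitochondrial arginase of other tissues, had 1 read in MHs against 0 in SHs, where Arg1 was among the more abundant transcripts. Slc25a2, a second ornithine carrier, had 2 reads in MHs against 17 in SHs, and a log2 ratio with an interval of -0.31 to 4.93. Slc25a12, the aspartate and glutamate carrier of muscle and brain, had 290 reads in MHs against 935 in SHs, or 17.1 against 22.1 RPM, with a log2 ratio of 0.37 (0.18 to 0.57). There were 9.13 reads of Slc25a13 for each read of Slc25a12 in MHs against 7.47 in SHs. Cad, whose product makes carbamoyl phosphate for pyrimidines, had 23.7 RPM in MHs against 26.6 in SHs, the log2 interval being -0.00 to 0.33.

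Of 6 genes for the supply of ammonia, bicarbonate, glutamate and aspartate, the interval of the log2 ratio lay above 0 for 4 and included 0 for 2. Scaled to all reads, 2 of the 6, Gls2 and Got1, were at least 25% higher, beside 8.89% of the 9608 genes. With the hepatocyte-marker scaling, only Gls2 passed that limit, and the interval stayed above 0 for Gls2 and Got1 but not for Got2 and Car5a. Gls2, the liver glutaminase, which frees ammonia inside mitochondria, had 406 RPM in MHs against 584 in SHs, for a log2 ratio of 0.53 (0.49 to 0.56). Got1, the cytosolic aspartate aminotransferase, had 212 RPM against 273, with a log2 ratio of 0.37 (0.31 to 0.42), and its mitochondrial counterpart Got2 had 0.14 (0.09 to 0.19). Car5a, the mitochondrial carbonic anhydrase that supplies bicarbonate, had a log2 ratio of 0.16 (0.01 to 0.31). Glud1 (glutamate dehydrogenase, -0.01 to 0.07) and Slc25a22 (a glutamate carrier, -0.02 to 0.22) had intervals that included 0.

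Of the 7 genes listed for transport of arginine, ornithine, ammonium and urea, 2 had at least 200 reads. Slc7a2, which carries cationic amino acids into hepatocytes, had 658 RPM in MHs against 678 in SHs, for a log2 ratio of 0.04 (0.01 to 0.07). Aqp9, a channel for glycerol, urea and water, had 162 RPM against 117, with a log2 ratio of -0.46 (-0.53 to -0.39). The ammonium channel gene Rhbg had 10 reads in MHs against 4 in SHs, Rhcg 1 and 3, and Slc7a1 2 and 4. The urea transporter gene Slc14a1 had 1 read in MHs against 0 in SHs, and Slc14a2 had 0 in both, which allows a level of up to 0.177 RPM in MHs and up to 0.0708 RPM in SHs. No difference between the libraries was read from counts this low.

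Of the 7 genes listed for other uses of ornithine and arginine, 2 had at least 200 reads, Oat and Odc1. Oat, which takes ornithine towards glutamate, had 4237 reads in MHs against 2685 in SHs, or 249.5 against 63.4 RPM, with a log2 ratio of -1.98 (-2.05 to -1.91). Glul, glutamine synthetase, had 2540 reads in MHs against 991 in SHs, or 149.6 against 23.4 RPM, with a log2 ratio of -2.68 (-2.78 to -2.57). For each read of Glul there were 41.3 reads of Cps1 in MHs against 268 in SHs, a log2 difference of 2.70 (2.59 to 2.80). For each read of Oat there were 5.19 reads of Arg1 in MHs against 24.5 in SHs. Odc1, which makes putrescine from ornithine, had 40.0 RPM against 41.3, and its interval of -0.08 to 0.18 included 0. Gatm, which uses arginine for creatine, had 35 reads in MHs against 2 in SHs, under the limit of 3 reads. The interval of its log2 ratio was -8.55 to -3.49. Nos3, the endothelial nitric oxide synthase, had 28 reads in MHs against 20 in SHs, Aldh18a1 8 and 4, Nos1 0 and 3, and Nos2 0 and 1.

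**Figure D4:**
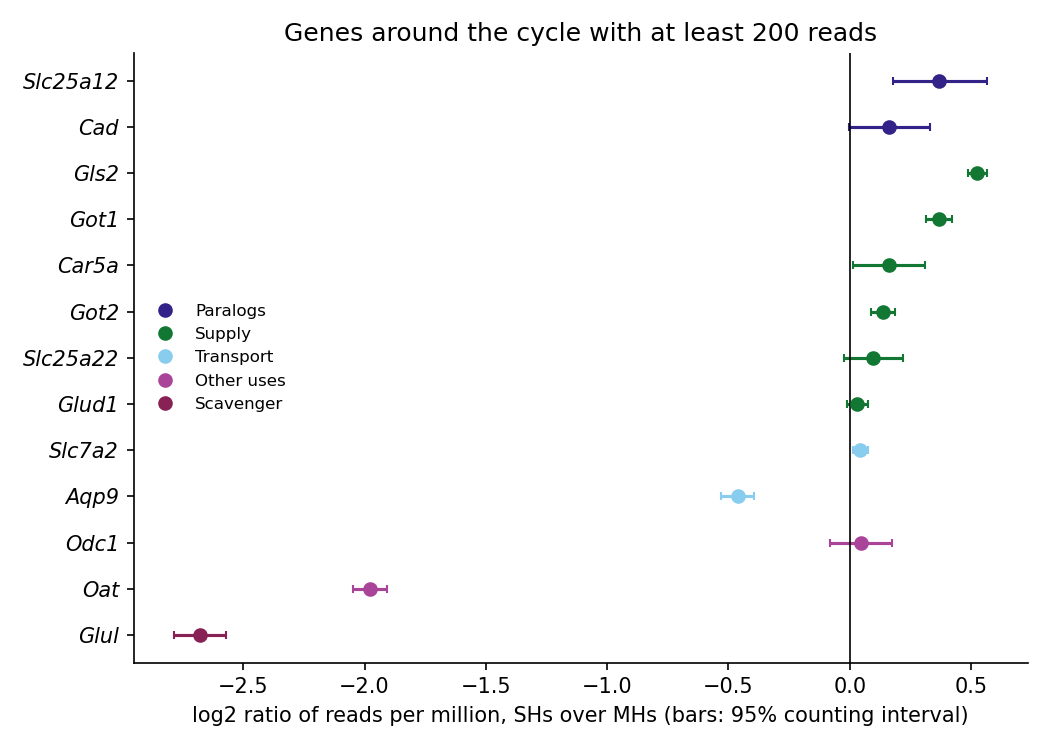
The log2 ratio of RPM in SHs over MHs, with 95% counting intervals, of genes around the urea cycle with at least 200 reads, coloured by list. Gls2 (0.53) stood highest, and Oat (-1.98) and Glul (-2.68) stood apart at the low end.

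The side of the lobule was described with marker lists that leave out the 8 genes. The 10 portal-side markers had a median log2 ratio of 0.40, and all 10 had an interval above 0, from 0.06 for Cyp2f2 to 1.29 for Aldh1b1. The 9 central-side markers with at least 200 reads had a median of -1.87, and all 9 had an interval under 0. The urea cycle median of 0.20 lay between the median of all genes, 0.03, and that of the portal list. Gls2 is in the portal list, and Glul and Oat are in the central list. Scaling to the 6 hepatocyte markers shifts every log2 ratio by -0.093, which puts Cyp2f2, Glud1, Slc7a2 and Odc1 under 0. The lists were written with earlier results of these libraries known, so their directions are no independent evidence.

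Most markers of the sinusoidal and stellate cells of the liver were lower in SHs. SHs had been sorted against CD31, CD45 and EpCAM, whereas MHs had not been sorted. The lists include the genes of these proteins, Pecam1, Ptprc and Epcam. The direction of such markers is therefore a property of how the cells were isolated and no independent result. Of 10 endothelial markers, 10 had a lower RPM in SHs, their sum being 96.2 RPM in MHs against 5.10 in SHs and Lyve1 at 0 reads in SHs. Of the 9 macrophage markers found, 9 were lower, and their sum was 21.7 RPM in MHs against 0.755 in SHs, and Marco was at 0 in SHs. Of 10 stellate cell markers, 9 were lower, and their sum was 27.7 RPM in MHs against 2.60 in SHs, and Colec11 was at 0 in SHs. Of the 7 cholangiocyte markers, 5 were lower in SHs, with 21.4 RPM in MHs against 24.4 in SHs in sum. The erythroid genes Hba-a1, Hbb-bs and Hbb-bt had 0 reads in MHs and at most 9 in SHs. The 37 genes of the mitochondrial genome made up 7.76% of reads in MHs against 8.61% in SHs. The part of these differences in the ratios of the urea cycle genes was not tested. The hepatocyte markers Alb, Apoa1, Ttr, Hnf4a, Tat and Serpina1c together had 71462 RPM in MHs against 76246 in SHs.

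The promoters in the RefSeq table of GRCm38, the assembly also called mm10, covered 5 of the 8 genes: Ass1, Slc25a15, Otc, Nags and Slc25a13. Cps1, Asl and Arg1 had no entry. Of these 5, Ass1 and Slc25a15 had the highest ratios, and Otc and Slc25a13 the lowest. Their sequences are shown so that the genes at either end can be compared. Each is the stretch of up to 250 bases before the transcription start, read 5′ to 3′ on the gene's strand and cut where the annotated gene begins. Ass1 is chr2:31470020-31470206, plus strand. Slc25a15 is chr8:22398622-22398871, minus strand. Otc is chrX:10252055-10252304, plus strand. Slc25a13 is chr6:6217174-6217423, minus strand. Capitals mark the matched motifs.
Ass1: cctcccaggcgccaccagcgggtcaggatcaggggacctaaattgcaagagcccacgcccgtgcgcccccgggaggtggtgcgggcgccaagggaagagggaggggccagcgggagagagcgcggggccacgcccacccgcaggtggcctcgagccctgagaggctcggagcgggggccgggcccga
Slc25a15: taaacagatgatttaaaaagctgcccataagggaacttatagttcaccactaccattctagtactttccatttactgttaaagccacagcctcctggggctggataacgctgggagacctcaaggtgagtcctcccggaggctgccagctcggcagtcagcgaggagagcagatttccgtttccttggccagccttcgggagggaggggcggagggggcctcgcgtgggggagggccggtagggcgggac
Otc: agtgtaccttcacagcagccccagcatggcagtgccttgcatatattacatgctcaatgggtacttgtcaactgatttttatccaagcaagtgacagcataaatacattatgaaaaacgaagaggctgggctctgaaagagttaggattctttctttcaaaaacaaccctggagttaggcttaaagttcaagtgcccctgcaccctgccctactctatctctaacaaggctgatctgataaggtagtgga
Slc25a13: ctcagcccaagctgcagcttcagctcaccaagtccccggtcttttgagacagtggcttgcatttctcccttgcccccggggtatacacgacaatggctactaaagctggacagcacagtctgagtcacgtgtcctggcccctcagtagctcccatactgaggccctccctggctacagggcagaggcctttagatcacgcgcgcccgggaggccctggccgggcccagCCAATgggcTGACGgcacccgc
A set of 6 motifs was searched on both strands. They were the TATA box TATAAA and the box CCAAT. The core of a cAMP response element was searched as TGACG and the core of a TCF/LEF site as CTTTGA. The C/EBP site was searched as TTGCNNAA. The HNF4 site was searched as CAAAGTCCA. Slc25a13 held CCAAT and TGACG, which do not overlap each other, and Nags held CTTTGA on its other strand. Ass1, Slc25a15 and Otc held none of the 6, but for Ass1 only 187 bases were searched, fewer than in the windows counted next. Of all 32851 promoter windows of 250 bases, 33.8% held CCAAT, 17.8% TGACG, 13.8% CTTTGA, 12.4% TATAAA, 9.56% TTGCNNAA and 0.384% CAAAGTCCA. The G and C content was 75.4% for Ass1, 57.6% for Slc25a15, 43.6% for Otc, 62.8% for Slc25a13 and 55.6% for Nags, against a median of 52.4% over all windows.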

How the data were processed

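For 1 library of MHs and 1 of SHs, the values the authors deposited are raw counts of reads on each gene symbol. Per the methods, reads were trimmed and aligned in CLC Genomics Workbench to mm10, a maximum was set on the hits of each read, and expression was given as RPKM. The program, annotation and strand setting behind the whole counts are not given in the sources used here. RPM, log2 ratios after adding 0.5 reads to each count, and 95% Clopper-Pearson intervals were computed in Python 3.11.15 with scipy 1.17.1. Intervals of differences between log2 ratios used Poisson counting error. With 1 library per group, no test was run. A gene at least 25% higher or 20% lower in SHs was called, and calls were set against all genes with at least 200 reads. Exons and coordinates came from GENCODE M21 of mm10. Member transcripts were compared with all annotated transcripts by blastn 2.17.0. The calculation was tested on simulated data. The 8 genes and all lists were chosen with earlier results of these data known, and all 8 genes are named. Scaling by edgeR 4.0.16 (TMM) and DESeq2 1.42.0 and other settings were alternatives. Scaling to 6 hepatocyte markers, the minimum of 5000 reads and the addition of Gm5424 were chosen after seeing the data.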

Additional observations from a re-analysis of the deposited data

How the results depend on the processing

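No paired analysis was possible because each group had a single library, and for the same reason no library could be left out. TMM, the size factors of DESeq2, and totals that left out the 10 most abundant genes or the mt- genes shifted all log2 ratios by 0.01 to 0.03, and left 8 of 8 urea cycle genes above 0. The number at least 25% higher was 3 without the 10 most abundant genes, and stayed at 2 with the others. Scaling to the 6 hepatocyte markers, of which Alb held most reads, shifted all log2 ratios by -0.09. The median was then 0.10, the number at least 25% higher was 1, and the log2 ratio of Cps1 reversed to -0.073 (-0.08 to -0.06). The median over the 5 cycle enzymes alone was 0.26. At 1.5-fold, 0 genes were higher, and at 2-fold also 0. The share of reads in SHs was 1.29% with TMM and 1.29% with the DESeq2 size factors. Without the 10 most abundant genes it was 1.43% in MHs and 1.67% in SHs, and without mt- genes 1.22% and 1.41%. Of all genes, 16.5% were at least 25% higher and 18.7% at least 20% lower with a minimum of 10 reads, against 5.54% and 5.46% with 1000 reads. These were 2559 and 2910 genes at 10 reads, 280 and 276 at 1000, 79 and 107 at 5000, and 4900 and 6525 at 1 read, beside 854 and 769 at 200. At 1.5-fold, 179 genes were higher and 202 lower. For all of these, the cause was not tested. Depth bounds the low paralogs and transporters more than the 8 genes, whose smallest total was 5125 reads.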

Other observations

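Regulators of urea cycle genes formed a list that the report does not use. Of its 9 genes, the interval of the log2 ratio lay above 0 for 3, under 0 for 2 and included 0 for 4. Cebpa, a transcription factor needed for hepatocyte metabolism, had 507 RPM in MHs against 585 in SHs, for a log2 ratio of 0.21 (0.17 to 0.24). Hnf4a had 0.04 (0.00 to 0.07) and Nr3c1, the glucocorticoid receptor, 0.09 (0.01 to 0.18). Cebpb had 104 RPM in MHs against 83.5 in SHs, for a log2 ratio of -0.32 (-0.40 to -0.24), and Creb1, a target of cAMP signaling, -0.40 (-0.60 to -0.19). Gcgr, the glucagon receptor, had 187 RPM in MHs against 182 in SHs, and its interval of -0.10 to 0.02 included 0, as did those of Ppargc1a, Foxo1 and Foxo3. Of the mitochondrial deacylases known to act on urea cycle enzymes, Sirt3 had an interval of -0.02 to 0.19 and Sirt5 one of -0.53 to 0.03. With the libraries scaled to the 6 hepatocyte markers, a shift of -0.093, Hnf4a and Sirt3 lay under 0.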
